A study of Mus musculus with 9 samples.

Results

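A set of 9 cartilage and bone genes was followed in lung fibroblasts of aged mice: the matrix genes Acan, Matn2, Matn4, Cilp and Cilp2, the transcription factors Sox9, Runx1 and Runx2, and Alpl, a phosphatase of mineralizing tissue. They were taken by gene symbol from a table of 43346 genes. All 9 were among the 16877 genes that were tested.

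The cells came from 9 mice of the Col1a1-GFP strain, in which the collagen I promoter drives GFP, so that GFP marks cells with an active Col1a1 promoter and not a fixed fibroblast lineage. All mice were aged (72 weeks, given as 18 months in the treatment protocol), and the study's methods describe male animals on an FVB background. The aged sham group (n = 4 mice) received 1 intratracheal dose of saline, and the aged bleo group (n = 5 mice) received 1 intratracheal dose of bleomycin, a DNA-damaging drug that scars the lung. Lungs were taken at 30 days, and GFP+ cells lacking CD45 (leukocytes), CD31 (endothelium) and EpCAM (epithelium) were sorted straight into lysis buffer for poly-A RNA-Seq.

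Cartilage is built on aggrecan, a large proteoglycan whose chondroitin sulfate chains hold water, and on collagen fibrils. The fibrils are linked by adaptor proteins such as the matrilins. SOX9 is the central transcription factor of cartilage cells and drives aggrecan and collagen II. RUNX2 is required to make bone-forming osteoblasts and works with the shared partner CBFβ, as does its relative RUNX1, which is best known in blood formation. The lung parenchyma normally makes neither tissue, although cartilage rings support its large airways.

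Libraries held between 49921946 and 68260600 assigned counts, at which 3 counts correspond to 0.0409 to 0.0604 CPM (counts scaled to a common library size with TMM factors). Col1a1, the gene of the reporter promoter, averaged 4150 ± 407 CPM in aged sham (SD over 4 mice) against 20833 ± 4966 in aged bleo (SD over 5 mice), and means below carry the same kind of error. Genes of the removed cells were still read: Ptprc, which encodes CD45, was at 86.9 ± 59.0 CPM in aged sham and 64.9 ± 66.2 in aged bleo. Pecam1, which encodes CD31, was lower, at 6.12 ± 0.509 CPM in aged sham and 4.34 ± 1.45 in aged bleo. Epcam was at 0.592 ± 0.141 and 0.667 ± 0.316 CPM. Leukocyte transcripts were highest in aged sham 4 and aged bleo 4, where 5 pan-leukocyte markers summed to 327 and 508 CPM, against 89.4 to 174 in the remaining libraries. Aged bleo 4 also lay farthest from the sham libraries on the first principal component, and its results are given below with and without it where it mattered. All values are from whole sorted populations, in which fewer cells of one kind and less RNA per cell cannot be told apart.

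Of the 9 genes, 5 were higher in aged bleo (Acan, Matn4, Cilp2, Runx1 and Runx2), 1 was lower (Sox9), and 3 did not pass (Matn2, Cilp and Alpl). A gene passed when its edgeR quasi-likelihood false discovery rate (FDR) was below 0.10 and its fold change above 1.5. By the same rule 23.8% of all tested genes passed, 12.3% as higher and 11.5% as lower. The 2 groups did not overlap for the same 6 genes, whereas 32.2% of all tested genes showed no overlap, 16.1% with aged bleo higher and 16.1% with it lower. The median log2 fold change (aged bleo over aged sham) of the 9 genes was 1.24, beside 0.01 over all tested genes. The 9 genes were chosen with earlier results of these data known, so this contrast is a description and not a test.

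**Figure D1:**
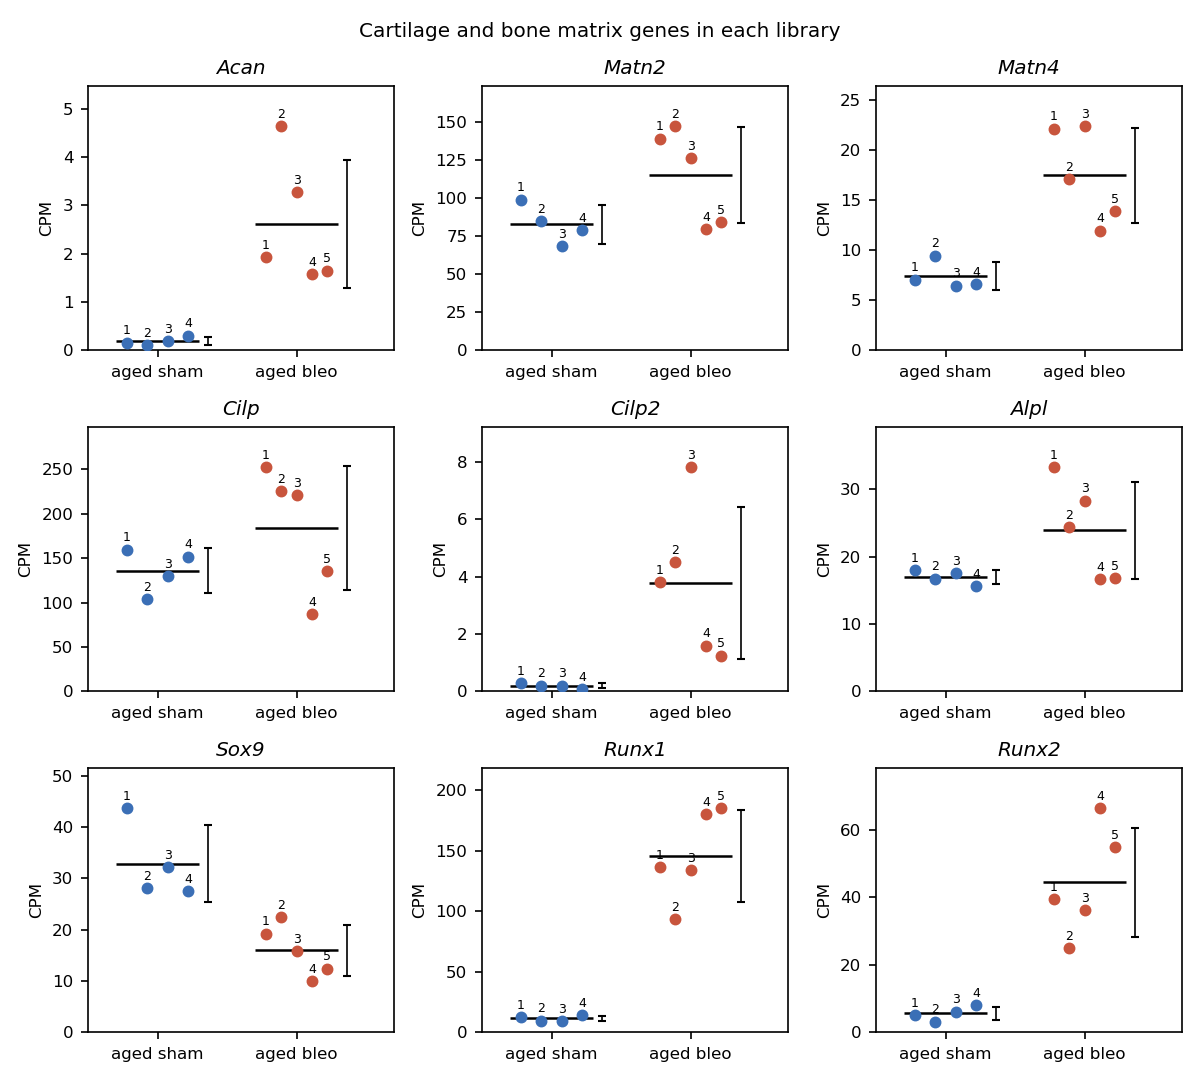
CPM of the 9 genes on linear axes from 0, 1 panel per gene, with 1 numbered point per library for aged sham (blue, n = 4) and aged bleo (red, n = 5), a bar at each group mean and an error bar of 1 SD. The groups are apart for Acan, Matn4, Cilp2, Sox9, Runx1 and Runx2, and they overlap for Matn2, Cilp and Alpl.

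Runx1 (ENSMUSG00000022952, mm10 chr16:92601466-92826149, minus strand) had the smallest FDR of the 9. It was at 12.6, 9.66, 9.51 and 14.2 CPM in aged sham 1 to 4. In aged bleo 1 to 5 it reached 137, 93.5, 134, 180 and 185 CPM. Each bleo library was well above each sham library, and the highest bleo values were in libraries 4 and 5. Runx1 rose 12.7-fold, with a log2 fold change of 3.67 ± 0.24 (SE, FDR = 2.3e-05) that stayed between 3.57 and 3.79 when any 1 library was left out.

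Runx2 (ENSMUSG00000039153, mm10 chr17:44495987-44814797, minus strand) moved the same way from a lower level. It was at 5.196, 3.16, 6.17 and 8.00 CPM in the sham libraries and at 39.6, 25.1, 36.2, 66.4 and 54.9 CPM in the bleo libraries. The lowest bleo library, number 2, was above the highest sham library, number 4. Runx2 rose 7.91-fold, with a log2 fold change of 2.98 ± 0.35 (SE, FDR = 4.22e-04) and a range of 2.78 to 3.20 over the libraries left out. The annotation places Runx2os1 on the other strand with 519 shared exonic bases, and the library kit did not mark strand, so reads of these genes cannot be told apart there. Cbfb, the gene of the partner, and Runx3, a further relative, were looked up after their values had been seen. Cbfb was at 74.7 ± 5.07 CPM in aged sham and 103 ± 16.7 in aged bleo (log2 fold change 0.47 ± 0.12, FDR = 0.0156), which was below the fold threshold. Runx3 was at 0.953 ± 0.396 and 2.89 ± 3.44 CPM and did not pass (log2 fold change 1.604 ± 0.77, FDR = 0.132). Its mean was carried by aged bleo 4 at 8.93 CPM, and without that library the log2 fold change was 0.52 (FDR = 0.407). Without aged bleo 1 (1.86, FDR = 0.0782) or aged bleo 2 (1.84, FDR = 0.0790) Runx3 passed.

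RUNX1 and RUNX3 are also leukocyte factors, so leukocyte and macrophage transcripts were set beside them. The pan-leukocyte sum was 89.4 to 327 CPM in aged sham and 90.9 to 508 in aged bleo, with 1 of 5 markers higher. The sum of 6 macrophage markers was 130 to 244 CPM in aged sham and 434 to 1375 in aged bleo, with 4 markers higher. Aged bleo 4 and 5 had both the highest macrophage sums (1375 and 795 CPM) and the highest Runx1 and Runx2. None of these markers was at 0 in all libraries. Aged bleo 4 and aged sham 4, the pair of libraries richest in leukocyte transcripts, were left out together, a choice made after seeing the data. Both Runx1 and Runx2 passed as higher there as well. The macrophage sums of the remaining libraries were still apart, at 130 to 185 CPM in aged sham and 434 to 795 in aged bleo. Leaving out this pair therefore cannot decide the part of such transcripts. Aged bleo 1 and aged sham 1 had the lowest pan-leukocyte sums of their groups, at 90.9 and 89.4 CPM. Their Runx1 was at 137 and 12.6 CPM, in only 1 library of each group. The macrophage sums of the same libraries were 434 and 130 CPM. The part of leukocyte and macrophage transcripts in the Runx1 and Runx2 values was not tested.

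Sox9 (ENSMUSG00000000567, mm10 chr11:112782224-112787760, plus strand) went the other way. It was at 43.6, 28.1, 32.2 and 27.5 CPM in the sham libraries and at 19.2, 22.4, 15.8, 10.0 and 12.4 CPM in the bleo libraries. Each bleo library was below each sham library, and the lowest were aged bleo 4 and 5. Sox9 fell by 1.04 ± 0.24 on the log2 scale (SE, FDR = 0.0101), and its log2 fold change lay between -1.19 and -0.87 with any 1 library left out. Sox9 is also expressed in some epithelial cells. A list of 8 epithelial markers, led in level by the alveolar gene Sftpc, summed to 10.4 to 82.8 CPM in aged sham and 17.2 to 54.5 in aged bleo, highest in aged sham 3 and aged bleo 2, and the part of these transcripts in Sox9 was not tested. Its cartilage partners Sox5 and Sox6, also chosen after their values were seen, did not pass. Sox5 was at 10.5 ± 1.25 CPM in aged sham and 13.0 ± 1.49 in aged bleo (FDR = 0.0721), and Sox6 at 6.56 ± 1.46 and 4.45 ± 1.63 (FDR = 0.203).

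Levels of the 3 factors were compared with each other as FPKM, the deposited values that are scaled for exon length and library size. In aged sham Sox9 was the highest at 3.34 ± 0.761 FPKM, followed by Runx1 at 0.407 ± 0.0752 and Runx2 at 0.267 ± 0.0919. In aged bleo Runx1 was the highest at 5.34 ± 1.496 FPKM, while Runx2 was at 2.18 ± 0.859 and Sox9 at 1.65 ± 0.489. The ratio of Runx1 to Sox9 was 0.101 to 0.181 in the sham libraries and 1.46 to 6.29 in the bleo libraries. The order of Runx1 and Sox9 was thus opposite in the groups in all 9 libraries. Runx2 to Sox9 was 0.0526 to 0.136 in the sham libraries and 0.524 to 3.10 in the bleo libraries. It was above 1 in aged bleo 3, 4 and 5 and below 1 in aged bleo 1 and 2, so Runx2 and Sox9 had no fixed order after bleomycin. Runx1 exceeded Runx2 in all 9 libraries, by 1.15 to 2.28 times in aged sham and 2.03 to 2.79 times in aged bleo.

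**Figure D2:**
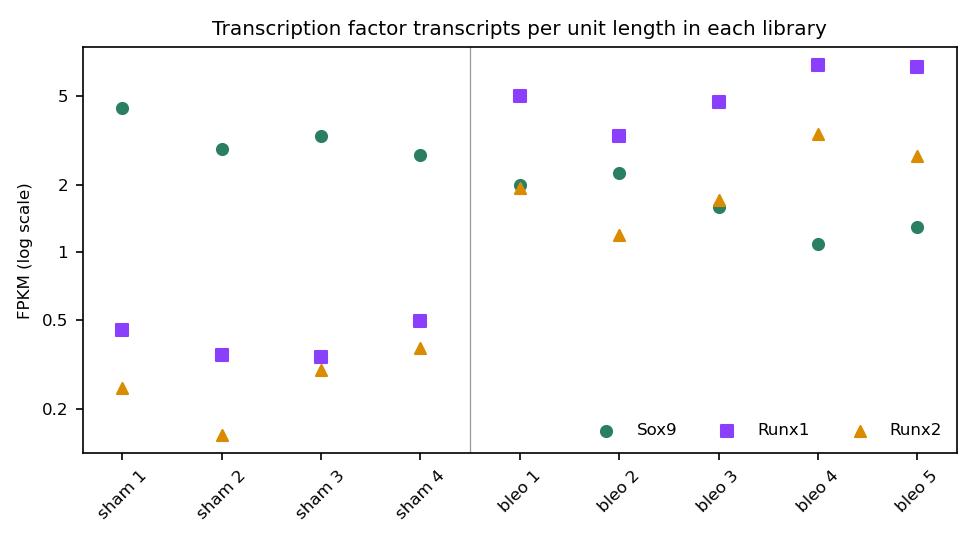
FPKM of Sox9, Runx1 and Runx2 on a log axis in each of the 9 libraries, 1 point per gene and library. Sox9 is the highest of the 3 in every aged sham library, and Runx1 is the highest in every aged bleo library.

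Sequences before the transcription start were matched for 7 of the 9 genes. The windows shown are clear of annotated exons and come from Acan and Runx1, which rose, and Cilp, which did not pass. The Alpl windows were also clear of exons, held no match to the letters below and are not shown. All windows are RefSeq reference sequences on GRCm38.p6, not read from these mice. Each is the 250 bases before a RefSeq start, 5′ to 3′ on the gene's strand, with capitals for any match to the letters tested: TGTGGT for RUNX factors, ACAATG for SOX factors and TGGAAA for NFAT, on either strand. A part of the Runx2 window is added for its match to the RUNX letters. The Runx1 window belongs to the start inside the gene, and the positions are chr7:79052976-79053225 for Acan, chr9:65264930-65265179 for Cilp, chr16:92697330-92697579 for Runx1 and chr17:44814690-44814719 for the Runx2 site.
Acan: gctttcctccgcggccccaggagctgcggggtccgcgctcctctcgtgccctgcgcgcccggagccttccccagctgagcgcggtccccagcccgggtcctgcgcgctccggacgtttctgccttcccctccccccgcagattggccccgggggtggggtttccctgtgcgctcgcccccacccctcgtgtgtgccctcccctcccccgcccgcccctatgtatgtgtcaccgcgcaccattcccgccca
Cilp: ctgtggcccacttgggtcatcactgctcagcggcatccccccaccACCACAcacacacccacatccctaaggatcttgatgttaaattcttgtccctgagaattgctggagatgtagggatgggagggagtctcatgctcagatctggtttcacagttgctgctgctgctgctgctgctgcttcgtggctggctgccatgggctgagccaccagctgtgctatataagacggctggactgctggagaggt
Runx1: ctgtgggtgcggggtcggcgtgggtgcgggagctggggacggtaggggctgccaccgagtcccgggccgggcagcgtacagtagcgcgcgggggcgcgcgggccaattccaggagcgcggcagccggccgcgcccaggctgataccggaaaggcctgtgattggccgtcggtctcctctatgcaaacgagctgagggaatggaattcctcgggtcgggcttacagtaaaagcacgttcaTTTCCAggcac
Runx2 site: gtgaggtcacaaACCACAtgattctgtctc
The RUNX letters occurred in 2 of 10 windows from the 7 genes, in Cilp 205 bases and in Runx2 80 bases before the RefSeq start, and in 14.0% of all 32851 windows. The deposited span of Runx2 reaches past its RefSeq start, so the printed site lies inside the gene by that annotation, in a stretch that GENCODE M21 gives as exon. The SOX letters occurred in none of the 10 windows and in 10.7% of all windows. The NFAT letters occurred in both Runx1 windows and in 18.6% of all windows. The Acan window held none of the 3 and was 74.4% G and C, against a median of 52.4% over all windows. A match of 6 letters is a description of the sequence and not a binding site, and a window without one says nothing of the factor.

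The matrix genes that rose were those at the lowest levels. Acan (ENSMUSG00000030607, mm10 chr7:79053483-79115099, plus strand), the gene of aggrecan, was at 0.161, 0.103, 0.195 and 0.302 CPM in the sham libraries, from 6 to 15 counts each. In the bleo libraries it was at 1.93, 4.63, 3.27, 1.58 and 1.65 CPM, from 90 to 261 counts each. All bleo libraries exceeded all sham libraries, and aged bleo 2 was the highest. Acan rose 13.7-fold, with a log2 fold change of 3.78 ± 0.46 (SE, FDR = 5.50e-04), and leaving out single libraries gave 3.47 to 4.08. With 1 added to each FPKM value before the log the difference was 0.19 (limma FDR = 0.0107), from means of 0.0108 and 0.151 FPKM. It did not pass by fold, since at FPKM this low the added 1 keeps the difference below the fold threshold. That rule therefore cannot decide whether Acan passes. By that rule, with limma, 10.6% of all genes passed.

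Cilp2 (ENSMUSG00000044006, mm10 chr8:69880369-69887687, minus strand) encodes a relative of cartilage intermediate layer protein and had the largest fold change of the 9. It was at 0.290, 0.205, 0.195 and 0.0806 CPM in the sham libraries and at 3.79, 4.49, 7.80, 1.595 and 1.24 CPM in the bleo libraries. The 2 groups were well apart, but the bleo libraries themselves spanned a 6.27-fold range, the widest of the 9 genes. Cilp2 rose 19.2-fold, with a log2 fold change of 4.26 ± 0.65 (SE, FDR = 0.00161) and 3.82 to 4.53 over the libraries left out. On the log2(FPKM + 1) scale the difference was 0.41 (limma FDR = 0.0242) and did not pass by fold, which FPKM this low could not reach.

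Cilp (ENSMUSG00000042254, mm10 chr9:65265180-65280605, plus strand), which encodes a protein of the middle zone of cartilage, was the most abundant of the 9 by FPKM in both groups. It was at 160, 104, 130 and 152 CPM in the sham libraries and at 252, 226, 221, 87.2 and 136 CPM in the bleo libraries. Aged bleo 1, 2 and 3 were above all sham libraries, aged bleo 5 lay among them and aged bleo 4 was below all of them. The log2 fold change was 0.44 with a 95% interval of -0.22 to 1.10 (FDR = 0.273). Without aged bleo 4 it was 0.61 and passed (FDR = 0.0478), and without both aged bleo 4 and aged sham 4 it was 0.65 (FDR = 0.0665). The FPKM of Cilp exceeded that of Cilp2 by 513 to 1911 times in the sham libraries and by 28.8 to 111 times in the bleo libraries, so Cilp remained far more abundant.

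The matrilins, adaptor proteins that join collagen fibrils to proteoglycans, differed in the same manner. Matn4 (ENSMUSG00000016995, mm10 chr2:164389393-164405160, minus strand) was at 7.05, 9.44, 6.46 and 6.61 CPM in the sham libraries and at 22.1, 17.1, 22.4, 12.0 and 13.9 CPM in the bleo libraries. The groups did not overlap, and the lowest bleo libraries were numbers 4 and 5. Matn4 rose 2.36-fold, with a log2 fold change of 1.24 ± 0.21 (SE, FDR = 0.00309) and 1.14 to 1.38 over the libraries left out. It shares 149 exonic bases with Rbpjl on the other strand, where reads cannot be told apart. Matn2 (ENSMUSG00000022324, mm10 chr15:34306680-34436242, plus strand) was at 99.0, 84.7, 68.5 and 78.8 CPM in the sham libraries and at 139, 147, 126, 79.7 and 83.9 CPM in the bleo libraries. Aged bleo 1, 2 and 3 were above all sham libraries and aged bleo 4 and 5 lay among them. The log2 fold change was 0.48 ± 0.20 (95% interval 0.02 to 0.94, FDR = 0.0987), a 1.39-fold difference that was below the fold threshold. Matn2 exceeded Matn4 by 13.0 to 20.3 times in FPKM in aged sham and by 8.13 to 12.4 times in aged bleo.

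Alpl (ENSMUSG00000028766, mm10 chr4:137741733-137796384, minus strand), the tissue-nonspecific alkaline phosphatase that frees phosphate for mineral, was close to constant in aged sham at 18.0, 16.8, 17.5 and 15.6 CPM. In the bleo libraries it was at 33.2, 24.4, 28.3, 16.6 and 16.8 CPM. Aged bleo 1, 2 and 3 exceeded all sham libraries, whereas aged bleo 4 and 5 were within their range. The log2 fold change was 0.49 ± 0.21 (95% interval 0.03 to 0.95, FDR = 0.0895), or 1.41-fold, below the fold threshold. It passed without aged bleo 4 (0.59, FDR = 0.0355) and without aged bleo 5 (0.60, FDR = 0.0487). Alpl is also read in neutrophils, whose 7 markers summed to 152 to 936 CPM in aged sham and 83.2 to 841 in aged bleo, highest in aged sham 4 and aged bleo 4. Alpl was at 15.6 and 16.6 CPM in those libraries, and the part of neutrophil transcripts in its values was not tested.

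**Figure D3:**
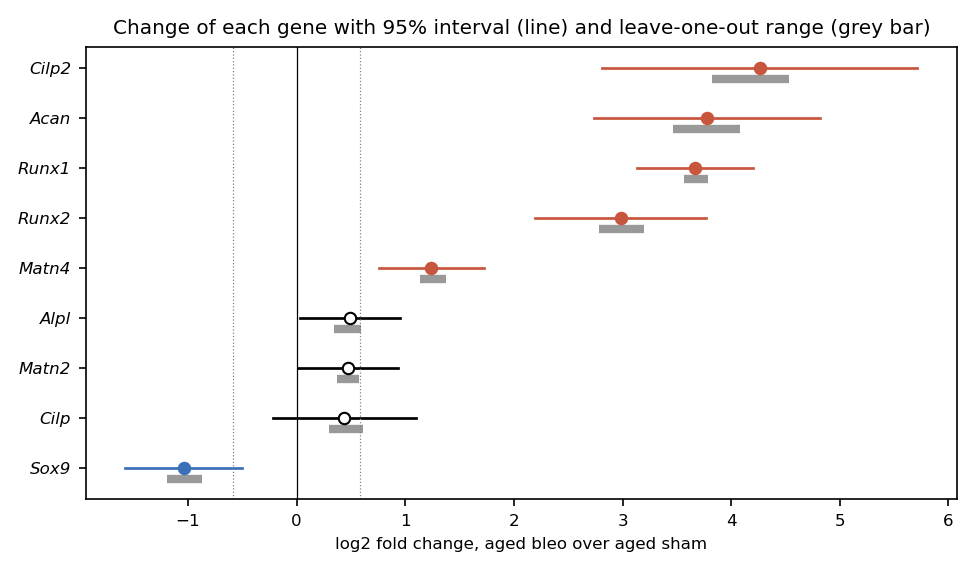
Log2 fold change, aged bleo over aged sham, of the 9 genes from the edgeR fit (points, n = 4 and 5; open where not called) with 95% intervals (lines), the range over single libraries left out (grey bars) and the 1.5-fold threshold (dotted). Cilp2, Acan, Runx1 and Runx2 lie near 3 to 4, Matn4 at 1.24, Matn2, Cilp and Alpl near 0.5, and Sox9 at -1.04.

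The level order of the 9 genes changed only in its middle. In aged sham the order by mean FPKM was Cilp (13.4 ± 2.33), Matn2 (9.70 ± 1.48), Sox9, Alpl (1.77 ± 0.126), Matn4 (0.600 ± 0.120), Runx1, Runx2, Cilp2 (0.0188 ± 0.00846) and Acan (0.0108 ± 0.00459). Each neighbouring pair kept that order in all 4 libraries, except Cilp2 and Acan, which kept it in 3. In aged bleo the order was Cilp (18.6 ± 6.79), Matn2 (13.8 ± 3.51), Runx1, Alpl (2.54 ± 0.744), Runx2, Sox9, Matn4 (1.45 ± 0.368), Cilp2 (0.373 ± 0.252) and Acan (0.151 ± 0.0731). There, Alpl exceeded Runx2 in 3 of 5 libraries, Runx2 exceeded Sox9 in 3 of 5, and Cilp exceeded Matn2 and Sox9 exceeded Matn4 in 4 of 5, so these neighbours were not apart beyond their spread. Acan and Cilp2 thus stayed the 2 lowest of the 9 in aged bleo despite their large fold changes.

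The spread among bleo mice divided the genes in 2 directions, a pattern that was seen in the values and not fixed beforehand. Aged bleo 4 and 5 were the 2 lowest bleo libraries for 7 genes, namely Acan, Matn2, Matn4, Cilp, Cilp2, Alpl and Sox9. They were the 2 highest for Runx1 and Runx2. Over all tested genes, these libraries were the lowest pair for 28.7% and the highest pair for 24.2%. Mean Alpl was 28.6 CPM in aged bleo 1 to 3, 16.7 in aged bleo 4 and 5 and 17.0 in aged sham. Matn2 was at 137, 81.8 and 82.8 CPM in the same order, and Cilp at 233, 111 and 136. Runx1 was at 121 CPM in aged bleo 1 to 3 and 183 in aged bleo 4 and 5, and Runx2 at 33.6 and 60.7. These same libraries lay farthest from aged sham on the first principal component and had the largest macrophage sums. Each library name has an ending, which was 4 for all aged sham libraries and also for aged bleo 4, 6 for aged bleo 5 and 5 for the remaining bleo libraries. What the ending stands for is not given in the sources used here. With the ending as a term in the fit, the group comparison rests on aged bleo 4 alone against aged sham, and the lone library is assumed to vary like the rest. In that fit the log2 fold changes were 3.97 for Runx1, 3.56 for Runx2, 3.06 for Acan, 3.02 for Cilp2, 0.69 for Matn4 and -1.71 for Sox9. Cilp was at -0.64 there, Matn2 at -0.056 and Alpl at -0.028.

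**Figure D4:**
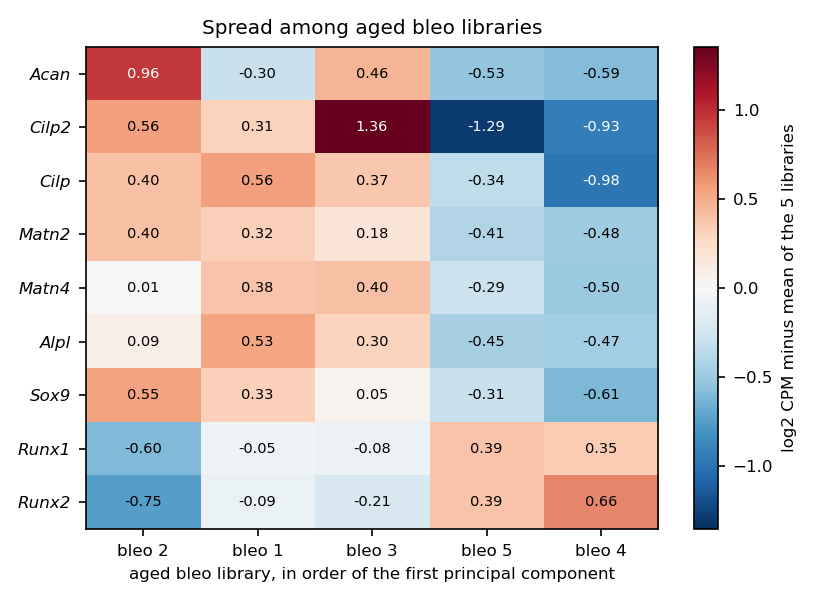
Log2 deviation of each aged bleo library from the aged bleo mean for the 9 genes, as a heat map with the value in each cell (red above, blue below the mean) and libraries ordered along the first principal component. Runx1 and Runx2 are above their mean in aged bleo 4 and 5, and the other 7 genes are below theirs.

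The wider cartilage and bone genes were described in 7 lists of 89 genes, 70 of them tested. Of these, 26 were higher and 9 lower, with a median log2 fold change of 0.45. Over all tested genes 12.3% were higher and 11.5% lower, with a median of 0.01. The counts of the single lists below, several of them small, are to be read beside these shares. All lists were chosen with earlier results of these data known, so their contrast with all genes is a description and not a test. Among 17 further cartilage matrix genes, 11 were tested, 6 were higher and 1 was lower, with a median of 0.77. Col11a1, a collagen of cartilage fibrils, went from 0.233 ± 0.0915 CPM in aged sham to 60.8 ± 11.5 in aged bleo (log2 fold change 8.05 ± 0.27). Matn3, another matrilin, was read with at most 0.0484 CPM in any sham library and was at 4.25 ± 1.29 CPM in aged bleo. Epyc, a small proteoglycan of growth cartilage, was at 3.32 ± 2.00 and 1.01 ± 0.394 CPM and fell by 1.72 on the log2 scale (FDR = 0.0183). Col2a1, the main collagen of cartilage, was too low to be tested, at 0.417 ± 0.0653 CPM in aged sham and 0.289 ± 0.107 in aged bleo.

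The 10 chondrocyte markers, all of them also members of the 7 lists, summed to 6.03 to 6.67 CPM in aged sham and 9.03 to 14.4 in aged bleo. Most of the aged sham sum was Col11a2, at 4.06 ± 0.549 CPM. In aged bleo Col11a2 was at 5.21 ± 1.02 CPM and Matn3 at 4.25 ± 1.29. Of the 4 markers that could be tested, Matn3 and Col9a2 were higher and 2 did not pass. Of the markers too low to be tested, Hapln1 and Col9a1 stayed near the level of 3 counts, at 0.0888 and 0.0915 CPM or less in every library. Matn1 averaged 0.00990 CPM in aged sham and 0.0734 in aged bleo, with at most 0.142 in a library. Snorc averaged 0.179 CPM in aged sham and 0.0693 in aged bleo, and Cnmd 0.479 and 0.327.

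Of 7 hyaluronan-binding proteoglycans and link proteins, the family of aggrecan, 3 were tested and 1 was higher, with a median log2 fold change of 0.64. Hapln3, a link protein, was at 0.281 ± 0.159 CPM in aged sham and 1.29 ± 0.477 in aged bleo (2.18 ± 0.41, FDR = 0.00429). Vcan, encoding versican, the large relative of aggrecan in soft tissues, was named after its values were seen. It was at 346 ± 64.0 and 493 ± 74.9 CPM and did not pass by fold (0.51 ± 0.16, FDR = 0.0327), though it did without aged sham 1 (0.61, FDR = 0.0284).

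Of 19 genes that build the chondroitin sulfate chains carried by aggrecan, 18 were tested, 4 were higher and none was lower, with a median of 0.34. Chsy3, a chain polymerase, went from 4.44 ± 0.741 to 29.3 ± 5.73 CPM (2.72 ± 0.18). Chst11, a sulfotransferase of the chains, went from 29.3 ± 2.80 to 91.1 ± 22.2 CPM (1.63 ± 0.19). All 7 genes of aggrecan breakdown were tested, and 2 were higher and 2 lower (median 0.45). Mmp13, the collagenase of cartilage, rose from 0.122 ± 0.0366 to 12.0 ± 2.65 CPM (6.59 ± 0.28), and Adamts15 from 99.97 ± 15.9 to 192 ± 50.04 CPM (0.94 ± 0.20). Adamts5, a main aggrecanase, fell from 380 ± 38.2 to 162 ± 54.0 CPM (-1.23 ± 0.25), and Adamts1 from 798 ± 119 to 460 ± 128 CPM (-0.79 ± 0.21).

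Of 7 further chondrogenic regulators, 6 were tested, and 1 was higher and 1 lower (median -0.40). Trps1, a repressor of the growth plate, was at 39.6 ± 10.9 and 66.6 ± 6.85 CPM (0.75 ± 0.17), and Sox8, the closest relative of Sox9, at 7.17 ± 0.376 and 3.19 ± 1.66 CPM (-1.17 ± 0.36, FDR = 0.0336). Sox8 and Sox9 were thus both lower in aged bleo. Of 12 osteogenic regulators, 8 were tested, and 2 were higher and 1 lower (median 0.30). Sp7, the osteoblast factor that acts after RUNX2, was at 0.0844 ± 0.0444 CPM in aged sham and 1.69 ± 0.247 in aged bleo (4.32 ± 0.35). Twist2, a restrainer of RUNX2, was at 27.2 ± 1.74 and 10.3 ± 2.96 CPM (-1.40 ± 0.20, FDR = 0.00136).

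Of 20 bone matrix and mineralization genes, 17 were tested, 10 were higher and 4 were lower, with the largest median of the 7 lists, 0.97. Spp1, osteopontin, went from 8.76 ± 2.53 to 2143 ± 1083 CPM (7.93 ± 0.55); it is also a macrophage transcript, and the part of the macrophage markers, summed above, in it was not tested. Ibsp, bone sialoprotein, went from 0.232 ± 0.211 to 39.4 ± 2.63 CPM (7.37 ± 0.43), and its log2 fold change was 8.17 without aged sham 2, the sham library with the most Ibsp. Omd, osteomodulin, fell from 19.99 ± 1.81 to 4.59 ± 2.68 CPM (-2.12 ± 0.39), and Sost, the WNT inhibitor sclerostin, from 76.5 ± 33.3 to 17.7 ± 14.0 CPM (-2.11 ± 0.59, FDR = 0.0228). The 6 osteoblast markers, all of them also members of the 7 lists, summed to 2.88 to 4.03 CPM in aged sham and 48.8 to 57.0 in aged bleo. Most of the aged sham sum was Ifitm5, at 3.13 ± 0.599 CPM against 1.32 ± 0.458 in aged bleo. Most of the aged bleo sum was Ibsp, with Dmp1 at 9.19 ± 3.95 CPM. Ibsp, Dmp1 and Sp7 were higher and Ifitm5 was lower, while the osteocalcin gene Bglap averaged 0.00831 CPM in aged sham and 0.0376 in aged bleo, below the level of 3 counts.

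**Figure D5:**
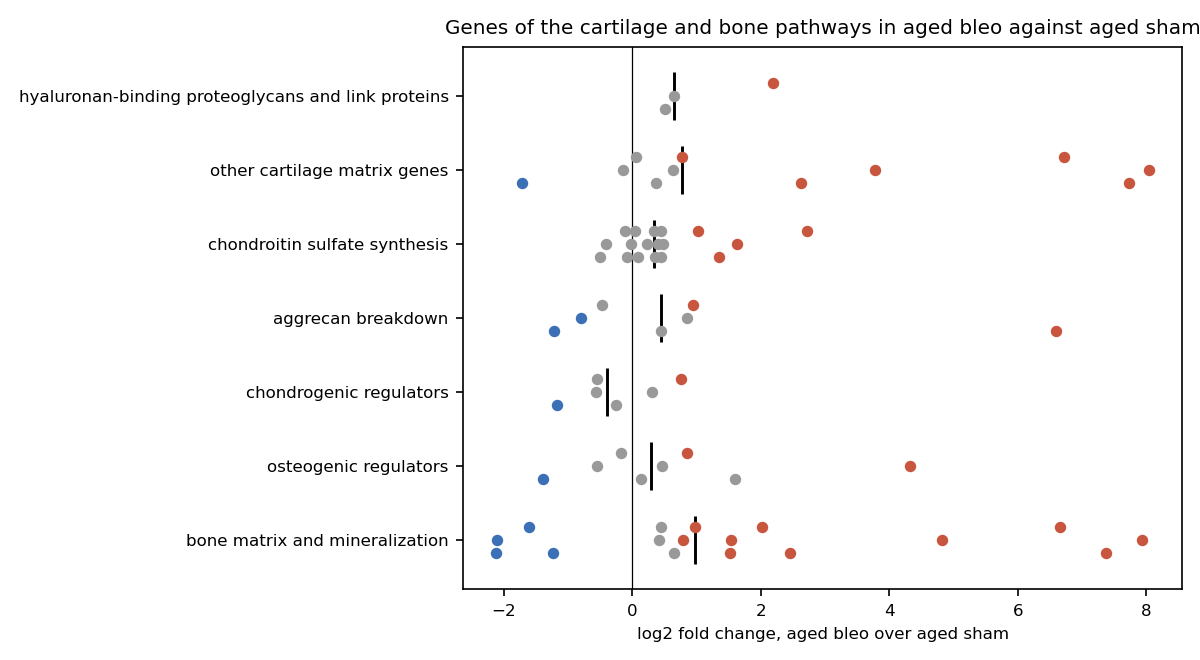
Log2 fold change, aged bleo over aged sham, of the tested genes of the 7 lists, 1 point per gene (red called higher, blue called lower, grey not called), with a black bar at each list median. The median is highest for bone matrix and mineralization (0.97) and lowest for chondrogenic regulators (-0.40).

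Genes whose pattern was most like the largest riser and the faller were sought by Pearson r of log2 CPM over the 9 libraries. For Cilp2 they included Ganab (r = 0.983) and Lamc3 (0.982). For Sox9 they were Vangl1 (0.994), Lonrf3 (0.988) and Cpeb1 (0.988). The libraries of a group share their treatment, which raises r for any gene that differs between groups. After subtracting the group means, r was 0.902 for both genes like Cilp2 and 0.984, 0.993 and 0.969 for those like Sox9. The genes were picked for a high r over the same 9 libraries, so this second r is not a separate check. Of these 5 genes, Lamc3 passed as higher (1.23), Lonrf3 (-0.96) and Cpeb1 (-0.83) passed as lower, and Ganab and Vangl1 did not pass by fold.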

How the data were processed

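Poly-A RNA-Seq libraries of sorted lung fibroblasts were made with a TruSeq RNA v2 kit, which does not mark strand. The authors deposited raw counts per gene and FPKM in 1 table. The submitters' processing notes name bcl2fastq, STAR 2.5.2b, Subread, featureCounts and mm10/GRCm38. Only genes averaging 25 counts or more per library entered the test, made with edgeR 4.0.16 (R 4.3.3; TMM factors, quasi-likelihood F-test, Benjamini-Hochberg FDR, call at FDR under 0.10 and fold over 1.5), on all 16877 genes together. The SE is the size of the log2 fold change over the root of its F, from which 95% intervals were taken. CPM are TMM-scaled and given as mean ± SD. DESeq2 1.42.0 and limma 3.58.1 served as alternatives.

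Replicates are separate mice, numbered in the labels. The 9 genes and all lists were chosen with earlier results of these data known. Beside the 9 genes, up to 2 called genes in each direction were named per list, those with the largest fold change, and the 3 genes most correlated with the largest riser and the faller, and 2 of the genes so chosen are not reported here. On counts simulated for 16727 genes, the edgeR step recovered 51.6% of 2-fold and 88.5% of 4-fold changes, with 11 false among 145 calls. The simulation changed a far smaller share of genes than the 23.8% called in these data, so its rates need not carry over. Depth was 49921946 to 68260600 counts, and the floor of 3 counts covers counting error only. Reads are not told apart by strand, and Matn2, Matn4, Runx1 and Runx2 share 70 to 519 exonic bases with genes on the other strand in GENCODE M21, where 8 of the 9 genes have the deposited positions. Same-numbered mice of the 2 groups deviated together with r = 0.09, 0.06, -0.13 and 0.33, so the numbers were not taken as pairs.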

Additional observations from a re-analysis of the deposited data

How the results depend on the processing

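Most results kept their direction and their side of the threshold. Over all named genes and alternatives, 822 values did so, 9 changed direction, 18 passed only in the alternative and 11 no longer passed, and among the 9 genes 171 did so, 3 changed direction, 4 passed only in the alternative and 2 no longer passed. The count of all genes called was 4022 and went to 1785 with log2(FPKM + 1), 2158 at FDR under 0.05 with fold over 2, and 6394 with the ending of the library name as a term. In the last, the group term compares aged bleo 4 alone with aged sham and assumes that the lone library varies like the rest. With that term Cilp (-0.64, FDR = 0.0445), Matn2 (-0.056), Alpl (-0.028) and Sox5 (-0.0073) turned negative, Ptprc (1.08) and Pecam1 (0.061) positive, and 2 of the 9 genes were called lower. With log2(FPKM + 1), 3 of the 9 were called higher, without Acan and Cilp2, whose FPKM is too low to reach the fold threshold on that scale. Single libraries left out gave 3525 to 4597 calls over all genes, 5 to 7 higher and 1 to 1 lower among the 9, and 35 to 41 in the lists (35 with all libraries). The 7 came without aged bleo 4, by Cilp and Alpl. Ptprc ranged from -1.30 without aged bleo 4 to 0.12 without aged sham 4, and Epcam from -0.15 without aged bleo 4 to 0.37 without aged sham 3, with -0.22 without both libraries of number 4. That last alternative was chosen after seeing the data and gave 3596 calls, 6 higher and 1 lower of the 9 and 36 in the lists. The replicate block gave 3536 calls, 5 higher and 1 lower of the 9 and 37 in the lists, and changed no call of the 9. Only number 4 correlated best with its own number. The median log2 fold change of all genes was 0.0064 in the main fit. It was -0.0015 with RLE in place of TMM factors and 0.017 with library size only. Without the low count filter, over a larger set of genes, it was 0.042. Where a change with a setting is given, the cause was not tested. Acan and Cilp2 in aged sham rest on few counts, which limits the precision of their fold changes.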

Other observations

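The share of the 9 genes' summed FPKM taken by each gene shifted between groups. The sum was 26.4 to 34.9 in aged sham and 33.7 to 57.3 in aged bleo. Cilp and Matn2 took the largest shares in every library, 27.4% to 49.8% and 26.7% to 38.1%. Sox9 took 9.28% to 12.7% in aged sham and 3.19% to 4.46% in aged bleo. Runx1 took 1.25% to 1.68% and 6.52% to 20.4%, with the highest share in aged bleo 4. Runx2 took 0.577% to 1.26% and 2.34% to 10.03%. Alpl took a like share in all libraries, 4.76% to 6.73%.

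Alpl varied least among sham mice, with a coefficient of variation of 6.12%, against 15.3% to 44.7% for the other 8 genes, and by 30.3% among bleo mice. Runx2os1, antisense to Runx2 with 519 shared exonic bases, had at most 152 counts in a library. Rbpjl, on the other strand at Matn4 with 149 shared exonic bases, had at most 129.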
